A study of Macaca mulatta with 6 samples.

Results

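Genes of the tumour necrosis factor (TNF) superfamily of ligands and receptors were examined in 6 RNA-seq libraries of rhesus macaque blood progenitor colonies. Members were taken by symbol: every row named TNFSF or TNFRSF with a number, together with TNF, LTA, LTB, LTBR, CD40, CD40LG, CD27, CD70, FAS and FASLG. The rule found 35 of the 32386 rows of the count table, 14 of them ligands and 21 receptors. By this measure 32 of the 35 were expressed, with a mean of 1 CPM or more in at least 1 group, as were 43.9% of all rows. Only 24 members reached that mean in both groups, and 22 had 1 CPM or more in every library. CPM here is a gene's share of the counts in tested genes, on the usual CPM scale and adjusted by TMM, a normalization that sets typical genes level between libraries.

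Superfamily ligands are mostly trimeric proteins on the cell surface that bind receptors on the same or another cell, and some are cut free to act at a distance. Receptors with a death domain, such as FAS and TNFRSF1A, can start caspase cleavage, while most others, such as CD40 and TNFRSF18, bind TRAF adaptors and turn on NF-kB. In marrow these signals are known for regulating survival of myeloid cells and inflammation, and for the traffic between dendritic cells and lymphocytes.

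Each library was made from a single granulocyte-macrophage colony (CFU-GM) grown for 14 days in methylcellulose. Marrow CD34+ cells for the colonies were collected 15 months after an autologous transplant of CD34+ cells treated with CRISPR/Cas9. The 3 libraries labelled wild type (WT) came from colonies with unedited TET2, and the 3 labelled TET2 UA (uniallelic, TET2+/-) from colonies with a predicted loss-of-function mutation of a single allele. All 6 share the transplant, the CRISPR/Cas9 exposure of the graft and the culture, and neither the number of animals nor the mutation of each colony is given in the labels. TET2 encodes an enzyme that oxidizes methylated cytosine, and the question behind the comparison is how expression differs in colonies that carry 1 mutated copy.

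Total counts ran from 6334264 to 25485143 per library. TET2 had 79.3, 92.8 and 109 CPM in WT replicates 1 to 3 and 238, 225 and 229 CPM in UA replicates 1 to 3, which does not check the labels, since allele-specific reads were not examined. The UA-labelled libraries resembled each other closely: pairs of them differed by 4.21 to 5.24 times counting noise (chi-square per degree of freedom), against 11.9 to 89.8 times in WT. The WT pairs with replicate 1, the library with the most counts, gave 89.8 and 88.5, and WT replicates 2 and 3 gave 11.9. This measure also grows with the total count. The biological coefficient of variation was 0.106 within UA and 0.312 within WT, with WT replicate 1 included. Whether the 3 UA libraries are 3 colonies or 1 RNA source could not be told apart, so a fit with their counts summed to 1 sample is given wherever it changes a call. The share of all genes called in that summed fit is not given here, so its counts of calls have no background. P-values here reflect only how far these libraries scatter, and some or all of that scatter may be technical. All 10 granulocyte and macrophage markers had counts, with a summed level of 1734 to 1855 CPM in WT and 28444 to 29088 CPM in UA. Most of the UA sum was MPO, LYZ and ELANE (16743, 7600 and 3111 CPM). SPI1 alone was lower in UA (174 CPM in WT, 62.6 in UA), and CSF1R differed little (130 and 149 CPM). Marker sums of other lineages were also higher in the same UA libraries. They were 522 to 537 CPM for 5 megakaryocyte markers (5.64 to 8.45 in WT) and 597 to 626 CPM for 7 B cell markers (63.1 to 72.5 in WT). The 8 endothelial and stromal markers summed to 1198 to 1229 CPM (155 to 163 in WT). Most of this was COL1A1 and COL1A2 (319 and 560 CPM in UA), and DCN alone was lower in UA (113 CPM in WT, 21.6 in UA). The 5 mast cell, basophil and eosinophil markers summed to 1028 to 1107 CPM (181 to 215 in WT), most of it EPX (877 CPM in UA, 2.90 in WT). Of these 5, 3 were higher in UA (edgeR, adjusted p under 0.05, as were 34.6% of all genes), and GATA2 was lower (115 CPM in WT, 68.6 in UA). HDC did not pass (36.6 and 29.8 CPM, log2 fold change -0.30, edgeR adjusted p = 0.160). The WT libraries held more of 7 dendritic and Langerhans cell markers, at 311 to 359 CPM against 41.9 to 50.7 CPM. In such bulk samples fewer cells of a type and less RNA per cell cannot be told apart.

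The superfamily was lower in UA more often than it was higher. Of 30 members that passed the filter on low counts, 16 fell and 8 rose in UA (edgeR, adjusted p under 0.05), where 31.4% of all 13768 genes tested fell and 34.6% rose. Together 24 of 30 were called (80.0%, against 66.0% of all genes), and in 25 of 30 the groups did not overlap, against 73.2% of all genes. The members' median log2 fold change of UA over WT was -0.87, and that of all genes 0.12. The lower members included the receptors TNFRSF18, TNFRSF9 and CD40 and the ligands TNFSF10, LTA and TNFSF8, and the higher ones CD40LG, TNFSF12, TNFRSF21 and TNFRSF14. With the UA libraries summed, 17 of the 24 calls were kept, 12 lower and 5 higher. TNF, LTB, TNFSF11, TNFSF13B, LTBR, TNFRSF1B and TNFRSF19 lost theirs. Without the share of all genes called in the summed fit, these counts only describe the list.

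**Figure D1:**
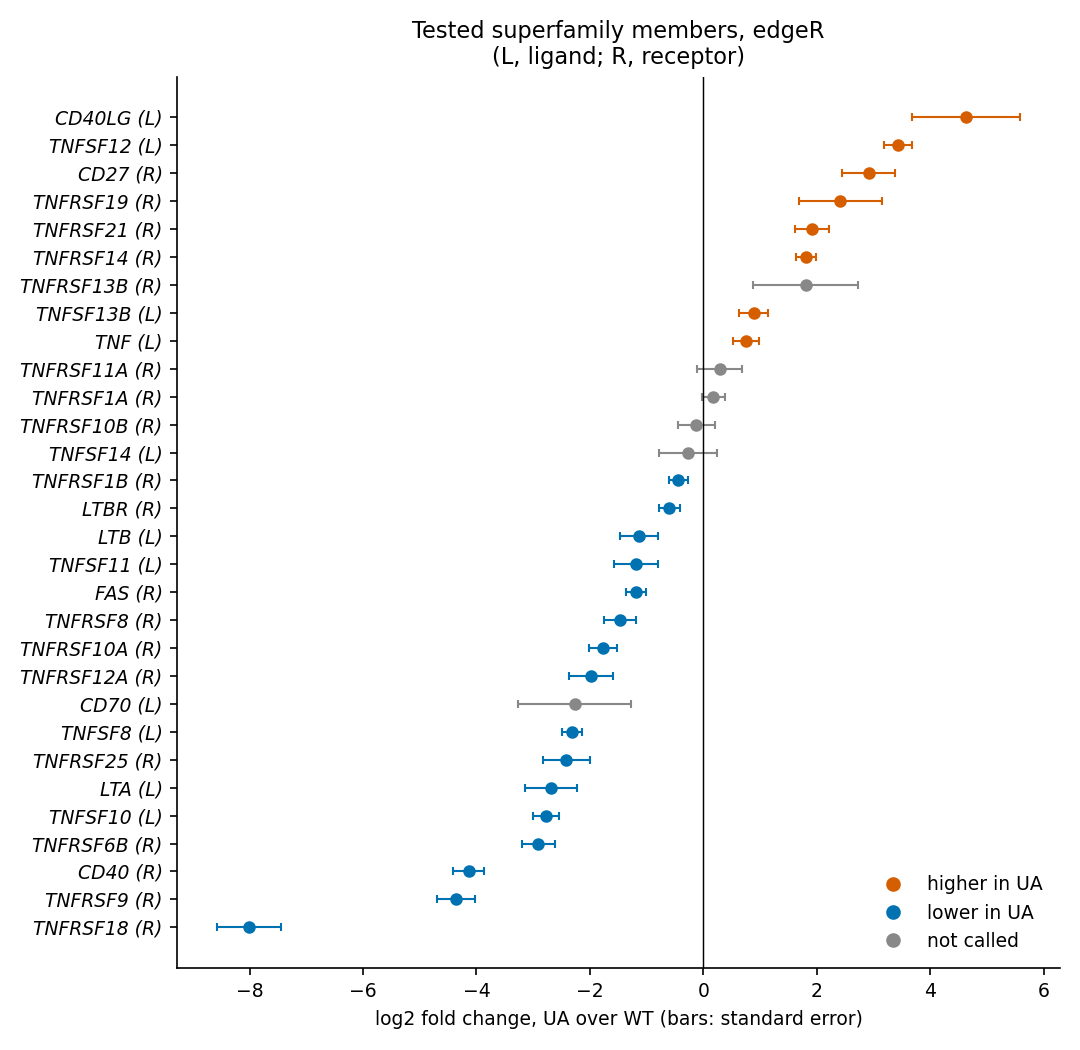
Log2 fold change of UA over WT (x axis) for the 30 tested superfamily members (y axis), with bars of 1 standard error from the edgeR fit on 3 libraries per label. TNFRSF18 lies farthest to the left at -8.01 and CD40LG farthest to the right at 4.62, and 16 members are coloured as lower and 8 as higher.

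Among the ligands, 5 of 11 tested fell (31.4% of all genes did), 4 rose (34.6% of all genes) and 2 did not pass. In the summed fit 5 ligands were called. TNFSF10, known as TRAIL, which triggers apoptosis through death receptors, fell 6.85-fold. It had 185, 121 and 127 CPM in WT replicates 1 to 3 and 20.8, 17.3 and 25.5 CPM in UA replicates 1 to 3. All UA libraries lay well below all WT libraries (log2 fold change -2.78, SE 0.23, edgeR adjusted p = 2.79e-06). Its gene lies on chromosome 2 from 121277328 to 121295965, in coordinates from the authors' deposited table. That table gives no genome build, and Mmul 8.0.1 is the build in the submitters' processing notes. TNFSF8, the ligand of CD30, had 185, 251 and 229 CPM in WT and 46.2, 49.4 and 37.2 CPM in UA. It fell 4.99-fold, with no overlap between groups (log2 fold change -2.32, SE 0.18, edgeR adjusted p = 2.17e-06). TNFSF11, known as RANKL, the osteoclast differentiation factor, had 11.5, 7.84 and 8.25 CPM in WT and 5.37, 2.12 and 4.58 CPM in UA. Its groups did not overlap either, but the call was narrow: it fell by 1.19 on the log2 scale (SE 0.38, edgeR adjusted p = 0.0179), and had a log2 fold change of -0.88 without UA replicate 2 (adjusted p = 0.0675) and -1.09 in the summed fit (adjusted p = 0.159).

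TNF, LTA and LTB are neighbours in the class III region of the major histocompatibility complex and moved in different directions. In the deposited table they lie in a row on chromosome 4, LTA from 32430770 to 32433615, TNF from 32435035 to 32436829 and LTB from 32440011 to 32441942, with 1419 and 3181 bases between them. LTA, or lymphotoxin alpha, had 6.85, 8.99 and 5.39 CPM in WT and 1.46, 1.06 and 0.591 CPM in UA. Every UA library was lower than every WT library, a 6.42-fold fall (log2 fold change -2.68, SE 0.46, edgeR adjusted p = 3.86e-04). TNF, the founding inflammatory cytokine of the family, had 11.1, 13.0 and 15.2 CPM in WT and 21.0, 23.8 and 21.3 CPM in UA, and the UA libraries were all higher. It rose by 0.75 on the log2 scale (SE 0.22, edgeR adjusted p = 0.0114), with 0.69 and an adjusted p of 0.0544 without UA replicate 2 and 0.76 and 0.194 in the summed fit. LTB, which joins LTA in a membrane heterotrimer, had 58.2, 21.0 and 31.2 CPM in WT and 14.8, 16.4 and 19.6 CPM in UA. WT replicate 1 stood 2.23 times above the mean of the other WT libraries, and the lowest WT library was only just above the highest UA one. LTB fell by 1.13 on the log2 scale (SE 0.33, edgeR adjusted p = 0.0116), and the summed fit gave -1.17 (adjusted p = 0.0824). The library kit marks no strand, so reads that run past the end of 1 gene into the next could not be assigned by strand.

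TNFSF12, TNFSF13B and CD40LG were higher in UA, besides TNF. TNFSF12 is known as TWEAK, a cytokine that macrophages make. Its row had 3.84, 5.26 and 3.45 CPM in WT and 43.1, 41.0 and 50.1 CPM in UA. This was a 10.7-fold rise with widely separated groups (log2 fold change 3.42, SE 0.24, edgeR adjusted p = 1.20e-06). The row spans chromosome 16 from 7528072 to 7540558, and no row carries the name of TNFSF13 (APRIL), the next gene beside TNFSF12 in RefSeq, so it is uncertain whether reads of both were counted there. TNFSF13B, or BAFF, a survival factor for B cells made by myeloid cells, had 44.2, 27.1 and 22.1 CPM in WT and 62.8, 61.8 and 48.7 CPM in UA. Its groups came close at WT replicate 1 but did not overlap (log2 fold change 0.89, SE 0.26, edgeR adjusted p = 0.0102; 0.95 and adjusted p = 0.0777 in the summed fit). CD40LG, the CD40 ligand of activated T helper cells and platelets, had 6, 0 and 0 counts in WT replicates 1 to 3 and 46, 52 and 14 counts in UA replicates 1 to 3. In CPM the UA mean was 3.19 ± 1.58 (SD, n = 3). The fitted rise by 4.62 on the log2 scale (SE 0.95, edgeR adjusted p = 0.00138) rests on those 6 WT counts, and became 8.22 without WT replicate 1 (adjusted p = 8.53e-05), where WT had no count.

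The other 5 ligands were low in all libraries, each with a mean under 5 CPM in both groups. CD70, the ligand of CD27, had 4.98, 1.34 and 2.27 CPM in WT and 0, 0.962 and 1.03 CPM in UA. The groups did not overlap, but the difference did not pass (log2 fold change -2.27, edgeR adjusted p = 0.0644), although it did with DESeq2 (-2.22, adjusted p = 0.0386). TNFSF14, known as LIGHT, had a mean of 2.35 CPM in WT and 1.96 CPM in UA with overlapping groups (log2 fold change -0.27, SE 0.51, edgeR adjusted p = 0.659). TNFSF15, FASLG and TNFSF9 were too low to test. TNFSF15 had 40, 7 and 24 counts in WT and 10, 6 and 0 in UA, and TNFSF9, the 4-1BB ligand, had 22, 1 and 11 in WT and 25, 6 and 5 in UA. FASLG, the death ligand of cytotoxic lymphocytes, had 1 count in the 3 WT libraries together and 19 in UA. The ratio was 23.6, and its 95% exact interval of 3.75 to 980.1 covers counting error only.

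**Figure D2:**
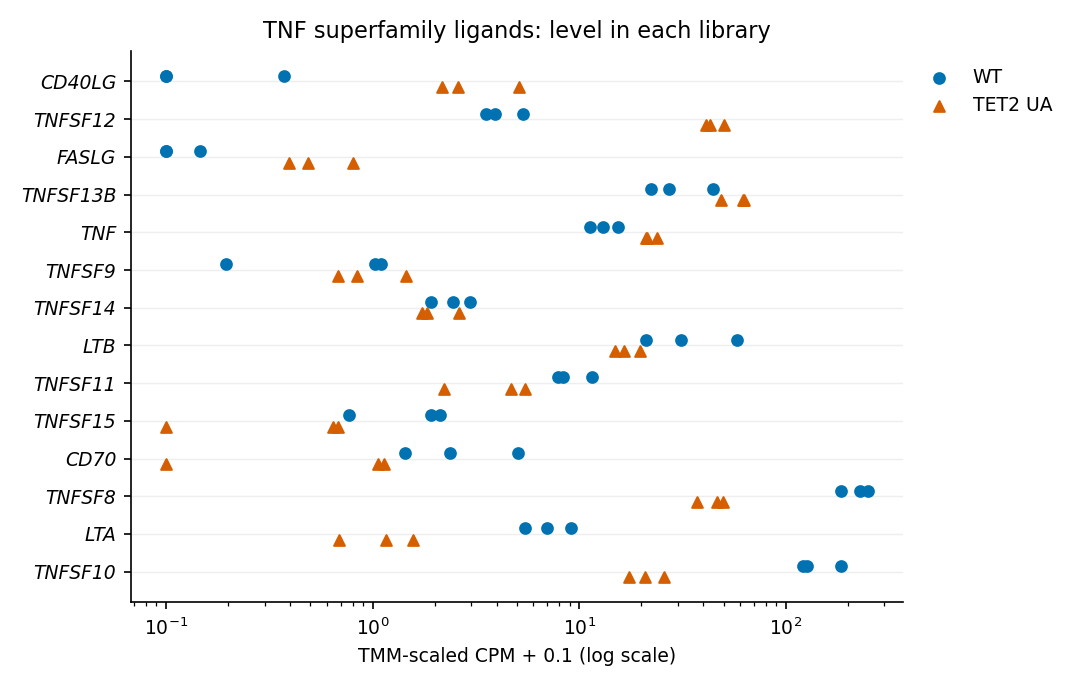
Level of the 14 ligands in each library, as TMM-scaled CPM plus 0.1 on a log axis, with WT libraries as circles and UA libraries as triangles, ordered by the ratio of the group means. Rows where circles and triangles stand clear of each other are the members whose groups do not overlap, from CD40LG and TNFSF12 at the top to TNFSF10 (121 to 185 CPM in WT, 17.3 to 25.5 in UA) at the bottom.

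Receptors fell in 11 of 19 tested (31.4% of all genes did), rose in 4 (34.6% of all genes) and did not pass in 4. The largest falls were in receptors without a death domain that costimulate lymphocytes or dendritic cells. TNFRSF18, known as GITR, a receptor of regulatory and activated T cells, had 976, 201 and 351 counts in WT replicates 1 to 3 and 2, 2 and 0 counts in UA replicates 1 to 3. In CPM this was 44.6, 19.2 and 29.6 in WT and 0.108, 0.192 and 0 in UA. UA held almost none of it (log2 fold change -8.01, SE 0.56, edgeR adjusted p = 1.10e-06). The size of that change rests on the 4 UA counts, and was -10.6 with all libraries thinned to the smallest total. TNFRSF9, or 4-1BB, had 16.9, 18.6 and 14.1 CPM in WT and 0.705, 0.865 and 0.886 CPM in UA, a 20.5-fold fall (log2 fold change -4.36, SE 0.33, edgeR adjusted p = 1.71e-06). CD40, through which T cells activate dendritic cells, macrophages and B cells, had 236, 147 and 154 CPM in WT and 12.8, 7.596 and 9.75 CPM in UA. WT replicate 1 was the highest and all UA libraries lay far below, 17.6-fold in the fit (log2 fold change -4.14, SE 0.27, edgeR adjusted p = 7.54e-07).

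Markers of the cells in which these receptors are best known were read in the same libraries. CD2 and TRAC had no row. Of 5 T cell markers with a row, CD3E, CD5 and BCL11B had no count in the WT libraries. There CD3G had 2, 0 and 0 counts, but CD3D had 112, 55 and 52. CD3D rose in UA (4.92 CPM in WT, 8.89 in UA, log2 fold change 0.87, edgeR adjusted p = 0.0317). The list summed to 4.38 to 5.26 CPM in WT, nearly all of it CD3D, and 7.68 to 15.7 CPM in UA. Among NK cell markers KLRD1 and KLRF1 had no count in WT, and the 4 with a row summed to 27.5 to 30.6 CPM in WT and 14.0 to 18.7 CPM in UA, most of it NKG7. Dendritic and Langerhans cell markers also fell, 5 of 6 tested, where 31.4% of all genes did. Among them were CD207 (82.4 CPM in WT, 0.0542 in UA), LAMP3 (37.2 and 1.42 CPM) and BATF3 (83.0 and 3.63 CPM). CCR7, also on that list, did not fall (19.8 CPM in WT, 21.6 in UA). The part of T cell, NK cell or dendritic cell content in the receptor levels was not tested.

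Other receptors without a death domain fell as well. TNFRSF8, or CD30, the receptor of TNFSF8, had 12.4, 19.0 and 20.3 CPM in WT and 6.29, 5.19 and 7.09 CPM in UA, with no overlap (log2 fold change -1.48, SE 0.28, edgeR adjusted p = 8.33e-04). TNFRSF12A, or Fn14, the TWEAK receptor, had 14.5, 8.03 and 7.75 CPM in WT and 3.14, 2.69 and 1.62 CPM in UA. Its groups did not overlap (log2 fold change -1.99, SE 0.39, edgeR adjusted p = 0.00102). LTBR, the lymphotoxin beta receptor, had 83.7, 63.3 and 73.3 CPM in WT and 53.5, 51.4 and 40.0 CPM in UA. This smaller difference (log2 fold change -0.60, SE 0.19, edgeR adjusted p = 0.0147) was not called with library size alone (-0.43, adjusted p = 0.0522), without UA replicate 3 (-0.49, adjusted p = 0.0789) or in the summed fit (-0.53, adjusted p = 0.302). TNFRSF6B, a secreted decoy that binds FASLG, TNFSF14 and TNFSF15, had 23.1, 17.6 and 18.8 CPM in WT and 2.11, 2.50 and 3.54 CPM in UA. It fell 7.51-fold with widely separated groups (log2 fold change -2.91, SE 0.30, edgeR adjusted p = 1.11e-05).

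**Figure D3:**
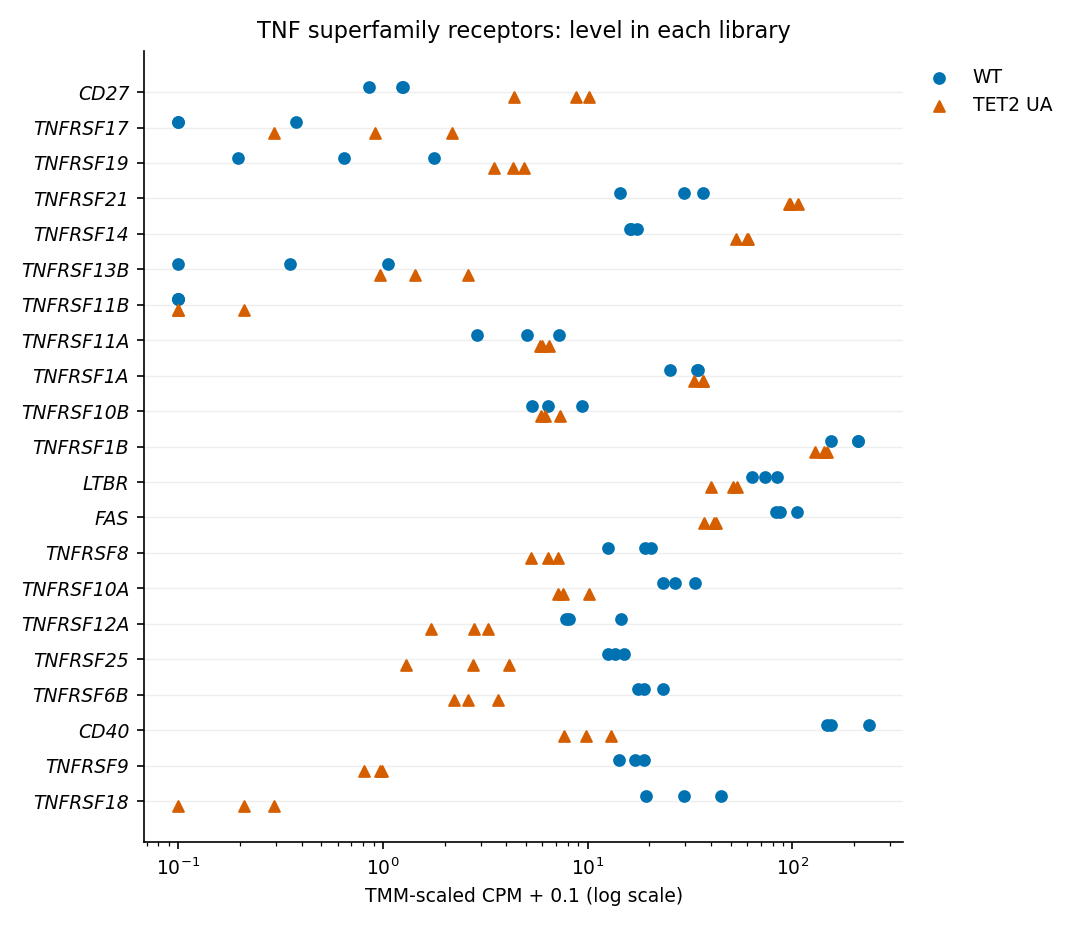
Level of the 21 receptors in each library, as TMM-scaled CPM plus 0.1 on a log axis, with WT libraries as circles and UA libraries as triangles, ordered by the ratio of the group means. TNFRSF18, TNFRSF9 and CD40 at the bottom have WT libraries far to the right of UA ones, TNFRSF1A and TNFRSF10B in the middle overlap, and TNFRSF14 and TNFRSF21 near the top have all UA libraries to the right.

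Of 6 receptors with a death domain, 3 fell, 1 rose and 2 did not pass, so 66.7% were called, near the 66.0% of all genes. FAS, the receptor of FASLG, had 87.1, 105 and 83.1 CPM in WT and 41.5, 42.1 and 36.9 CPM in UA. The groups were far apart, and FAS fell 2.28-fold in the fit (log2 fold change -1.19, SE 0.17, edgeR adjusted p = 1.13e-04). TNFRSF10A, a TRAIL death receptor, had 26.6, 23.3 and 33.5 CPM in WT and 7.10, 7.50 and 10.04 CPM in UA, again without overlap (log2 fold change -1.77, SE 0.25, edgeR adjusted p = 1.03e-04). TNFRSF10B, the other TRAIL death receptor, had 6.30, 9.27 and 5.22 CPM in WT and 5.80, 6.06 and 7.24 CPM in UA, with overlapping groups (log2 fold change -0.13, SE 0.33, edgeR adjusted p = 0.747). These near-related genes may share reads, which was not examined. TNFRSF25, or DR3, the receptor of TNFSF15, had 15.0, 12.4 and 13.5 CPM in WT and 1.19, 4.04 and 2.66 CPM in UA. It fell 5.34-fold, and the UA libraries were the more scattered (log2 fold change -2.42, SE 0.41, edgeR adjusted p = 3.93e-04).

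TNFRSF21, or DR6, was the death domain receptor that rose. It had 14.3, 36.6 and 29.5 CPM in WT replicates 1 to 3 and 106, 96.3 and 97.3 CPM in UA replicates 1 to 3. WT replicate 1 was the lowest, and all UA libraries were above all WT ones (log2 fold change 1.91, SE 0.29, edgeR adjusted p = 1.89e-04). The pair of TNF receptors differed less. TNFRSF1A, the widely expressed one that carries a death domain, had 25.2, 34.6 and 34.3 CPM in WT and 33.1, 36.4 and 36.6 CPM in UA, with overlap (log2 fold change 0.18, SE 0.20, edgeR adjusted p = 0.450). TNFRSF1B, the TNF receptor of leukocytes, which has no death domain, had 155, 208 and 210 CPM in WT and 148, 143 and 129 CPM in UA. WT replicate 1 lay near the UA libraries, and the call (log2 fold change -0.44, SE 0.16, edgeR adjusted p = 0.0329) was lost under 8 of 17 alternatives, among them library size alone (-0.29, adjusted p = 0.185), the summed fit (-0.40, adjusted p = 0.418) and the omission of any 1 library other than WT replicate 1 (adjusted p of 0.0790 to 0.135).

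Receptors that rose in UA beside TNFRSF21 were TNFRSF14, CD27 and TNFRSF19. TNFRSF14, or HVEM, the receptor of TNFSF14, had 17.3, 16.3 and 15.9 CPM in WT and 60.3, 52.7 and 60.3 CPM in UA. Both groups were tight and well apart (log2 fold change 1.81, SE 0.18, edgeR adjusted p = 9.59e-06). On chromosome 1 TNFRSF14 (1628747 to 1637082) lies between TNFRSF18 (298286 to 301681) and TNFRSF25 (5603461 to 5608784) in the deposited table, and both of these fell. CD27, a receptor of T cells and memory B cells, had 1.14, 1.15 and 0.758 CPM in WT and 10.1, 8.65 and 4.28 CPM in UA, a 7.53-fold rise (log2 fold change 2.91, SE 0.46, edgeR adjusted p = 2.42e-04). The authors' deposited table names that row CD27 and a table of gene names names it TAPBPL, so its identity is uncertain. TNFRSF19, known as TROY, had 12, 1 and 20 counts in WT and 88, 44 and 23 counts in UA. Its groups did not overlap in CPM (0.548, 0.0956 and 1.68 against 4.77, 4.23 and 3.40), but the call (log2 fold change 2.41, edgeR adjusted p = 0.0129) was lost without UA replicate 1 (2.29, adjusted p = 0.0518) and in the summed fit (2.50, adjusted p = 0.0959), and its value was 3.47 without WT replicate 3.

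Receptors of B cell and bone biology were low. TNFRSF13B, or TACI, which binds BAFF, had 21, 0 and 3 counts in WT and 46, 9 and 9 in UA, with overlapping CPM and no call (log2 fold change 1.80, edgeR adjusted p = 0.106). Without WT replicate 1 it was called higher (3.50, adjusted p = 0.0120). TNFRSF17, or BCMA, was too low to test, with 6, 0 and 0 counts in WT and 15, 2 and 14 in UA. The B cell markers rose in the same UA libraries, 6 of 7 tested, where 34.6% of all genes did. CD22 was not called (11.1 CPM in WT, 8.06 in UA, log2 fold change -0.48, edgeR adjusted p = 0.256). The part of B cell content in these values was not tested. TNFRSF11A, or RANK, the receptor of TNFSF11, had 2.79, 7.17 and 4.97 CPM in WT and 5.75, 6.35 and 5.91 CPM in UA. WT spanned the UA range (log2 fold change 0.29, SE 0.39, edgeR adjusted p = 0.536), and the sign turned without WT replicate 1 (-0.0081). TNFRSF11B, or osteoprotegerin, the secreted decoy of TNFSF11, had no count in WT, which allows up to 0.137 to 0.287 CPM per library, and 2 counts in UA. No row was named TNFRSF4, TNFRSF13C, TNFSF4 or TNFSF18, so the ligand of TNFRSF18 has no value here.

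Ligands were also set beside their receptors. Of 15 textbook pairs, listed after the values were seen, both partners were called in 6: both fell in 3, and in the other 3 the ligand rose and the receptor fell. With 66.0% of all genes called, and pairs that share members, these counts only describe the list. It leaves out LTA with the TNF receptors, which LTA also binds; LTA and TNFRSF1B both fell. TNFSF8 and TNFRSF8, TNFSF10 and TNFRSF10A, and LTB and LTBR fell together, the last pair on calls that the summed fit did not keep. CD40LG rose where CD40 fell, TNFSF12 rose where TNFRSF12A fell, and TNF rose where TNFRSF1B fell, and the summed fit did not keep the calls of this last pair either. In no pair did both rise, and in none did the ligand fall and the receptor rise, among those 6. These are transcript levels, and protein was not measured.

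**Figure D4:**
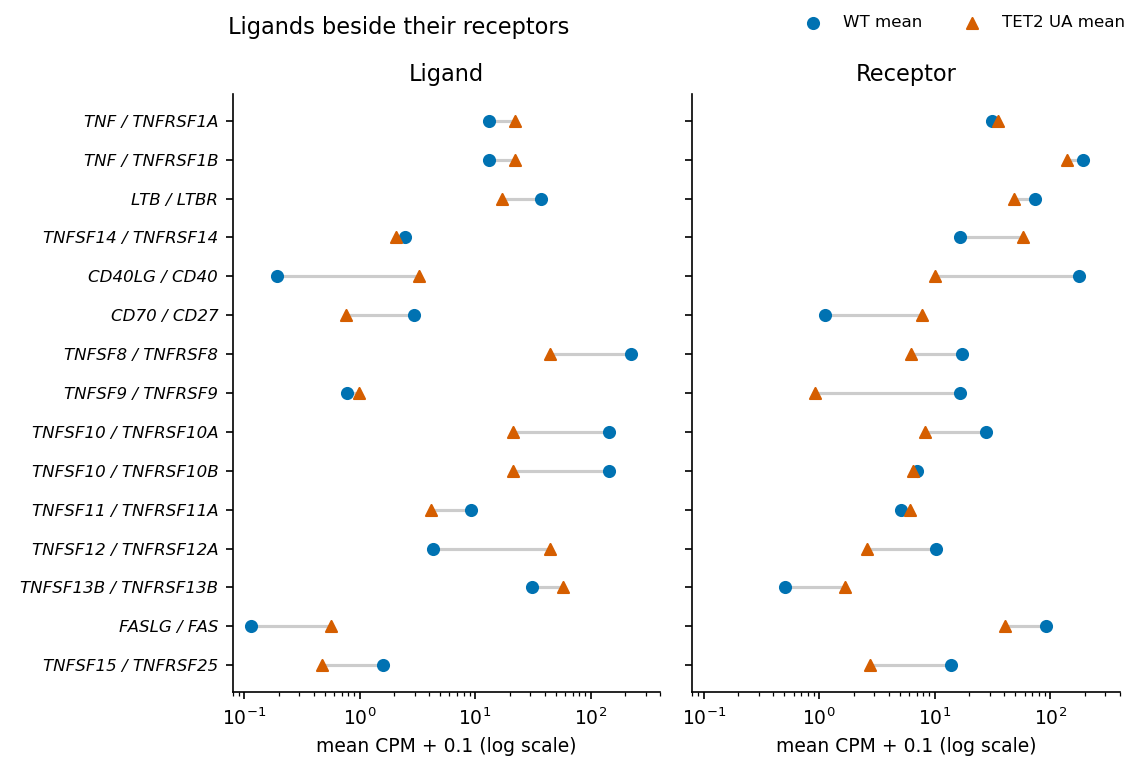
Mean level of each ligand (left) and of its receptor (right) in WT (circles) and UA (triangles), as TMM-scaled CPM plus 0.1 on a log axis, n = 3 libraries per mean, for 15 textbook pairs. In the row of CD40LG and CD40 the triangle lies to the right of the circle for the ligand and to the left for the receptor (179 CPM in WT, 10.1 in UA), and in the row of TNFSF8 and TNFRSF8 it lies to the left in both.

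The libraries of 1 label also varied among themselves. WT replicate 1 exceeded the mean of the other WT libraries by more than 1.5 times in 8 of 30 tested members (18.3% of all genes), and lay below 1/1.5 of it in 4 (22.9% of all genes). CD70, LTB, TNFRSF12A and TNFRSF18 were 2.76, 2.23, 1.84 and 1.83 times that mean, and TNFRSF21 and TNFRSF11A 0.431 and 0.459 times. The UA libraries were narrower, and among the members named in full TNFRSF25, TNFSF11, LTA and CD27 were the ones whose highest UA library was more than 2 times the lowest, apart from TNFRSF18 with its 0 to 2 counts.

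Genes that carry the signal inside the cell moved in both directions. Of 46 signalling partners listed from textbook knowledge, 42 had a row and 41 were tested: 17 rose, 13 fell and 11 did not pass (73.2% called, against 66.0% of all genes), with a median log2 fold change of 0.14, close to the 0.12 of all genes. With the UA libraries summed, 8 rose and 9 fell, and the calls lost are named after the groups. Among 12 receptor-proximal adaptors and ligases, 5 fell and 4 rose (31.4% of all genes fell and 34.6% rose). TRAF1, an adaptor induced by NF-kB that binds TRAF2, had 191, 256 and 236 CPM in WT and 17.7, 17.02 and 13.1 CPM in UA. TRAF1 was the partner with the smallest p (log2 fold change -3.82, SE 0.20, edgeR adjusted p = 1.50e-07). TRAF2, which recruits BIRC2 and BIRC3 to receptors, fell by 2.21 on the log2 scale (SE 0.17, edgeR adjusted p = 1.60e-06), and TRADD, the death domain adaptor of TNFRSF1A and TNFRSF25, had a log2 fold change of -2.67 with SE 0.28 (adjusted p = 1.27e-05). TANK, a TRAF-binding protein, and TRAF3, the brake on the alternative NF-kB pathway, had log2 fold changes of -1.17 and -1.13. BIRC3, a ubiquitin ligase and NF-kB target, had 69.2, 157 and 122 CPM in WT and 290.2, 322 and 294 CPM in UA, and rose by 1.38 (SE 0.25, edgeR adjusted p = 6.21e-04). XIAP, an inhibitor of caspases, rose by 1.66, and TRAF3IP2 and TRAF6 rose with less certain calls.

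All 8 death effectors and brakes were called, 5 higher and 3 lower. Of all genes 66.0% were called, 34.6% higher and 31.4% lower. The initiator caspases CASP8 and CASP10 rose by 1.02 and 1.89 on the log2 scale. CFLAR, the inhibitor of CASP8 activation, rose as well, from 43.8 ± 11.3 CPM to 78.4 ± 3.64 CPM (SD, n = 3 libraries each; log2 fold change 0.84, edgeR adjusted p = 0.00349), and lost its call in the summed fit (0.88, adjusted p = 0.0769). BID, which links CASP8 to mitochondria, had 555, 292 and 347 CPM in WT and 68.4, 77.4 and 67.8 CPM in UA, and fell by 2.48 (SE 0.23, edgeR adjusted p = 6.61e-06). DAXX and MLKL, the effector of necroptosis, had log2 fold changes of -1.44 and -0.56.

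Among 7 ubiquitin editing genes 2 rose and 3 fell, so 71.4% were called, near the 66.0% of all genes. TNFAIP3, or A20, which ends NF-kB signalling, had 16.6, 61.7 and 59.95 CPM in WT and 262, 265 and 273 CPM in UA. It rose by 2.54 on the log2 scale (SE 0.39, edgeR adjusted p = 1.89e-04), and WT replicate 1 was far below the other WT libraries. Its binding partners TNIP1 and TNIP2 went the other way, with log2 fold changes of -1.82 and -1.31 (SE 0.20 and 0.17, edgeR adjusted p = 1.68e-05 and 4.92e-05). SHARPIN and RNF31, subunits of the linear ubiquitin ligase, had log2 fold changes of -1.03 and 0.55. Of 9 genes tested for kinases and their partner subunits, MAP3K14, MAP3K8 and TAB2 rose by 0.96, 0.92 and 0.57. IKBKG, the regulatory subunit of the IKK complex, had a log2 fold change of -0.56. The other 5 did not pass, so 44.4% of this group were called, against 66.0% of all genes.

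Of 5 genes for proteases that cut ligands and receptors free, or for proteins that mature them, 3 rose, 1 fell and 1 did not pass (34.6% of all genes rose and 31.4% fell). ADAM17, the sheddase of TNF and of both TNF receptors, had 40.8, 86.0 and 74.9 CPM in WT and 130, 149 and 108 CPM in UA. The groups did not overlap (log2 fold change 0.94, SE 0.26, edgeR adjusted p = 0.00726), and the summed fit gave 0.98 (adjusted p = 0.050004). ADAM10 and FURIN, the protease that processes TNFSF13B and TNFSF12, rose by 1.10 and 1.81, while RHBDF2, an inactive rhomboid protein that helps ADAM17 mature, had a log2 fold change of -0.65 (edgeR adjusted p = 0.0388; 0.305 in the summed fit). RHBDF1 did not pass.

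The weaker calls among the partners depended on how the UA libraries were counted. In the summed fit 13 of the 30 called partners lost their call, with adjusted p-values from 0.050004 (ADAM17) to 0.325 (MLKL), while 17, among them TRAF1, TRAF2, TRADD, BID, TNFAIP3 and BIRC3, kept it under all alternatives run. Among the 13 were SHARPIN, MAP3K14, CFLAR, ADAM17, IKBKG, TRAF3IP2, TAB2, MLKL, TRAF6, CASP8, RNF31 and RHBDF2. The last 8 of these also lost it when a single library was left out. Without UA replicate 1 this held for IKBKG (adjusted p = 0.0520), TRAF3IP2 (0.0529), TAB2 (0.0640), MLKL (0.0720), CASP8 (0.0555), RNF31 (0.0767) and RHBDF2 (0.0860). Without UA replicate 2 it held for TAB2 (adjusted p = 0.0517), TRAF6 (0.0594), CASP8 (0.0714), RNF31 (0.102) and RHBDF2 (0.154). Without UA replicate 3 it held for TRAF3IP2 (adjusted p = 0.0587), MLKL (0.0917), TRAF6 (0.0501), RNF31 (0.0516) and RHBDF2 (0.0622). Of the WT libraries, replicate 2 decided RNF31 (adjusted p = 0.0653 without it), and replicate 3 decided TRAF6 (0.0632) and RHBDF2 (0.153). With library size alone MLKL (adjusted p = 0.0819) and RHBDF2 (0.129) were not called, nor was RHBDF2 with upper-quartile factors (0.0709). All 13 kept their direction in each of these fits.

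**Figure D5:**
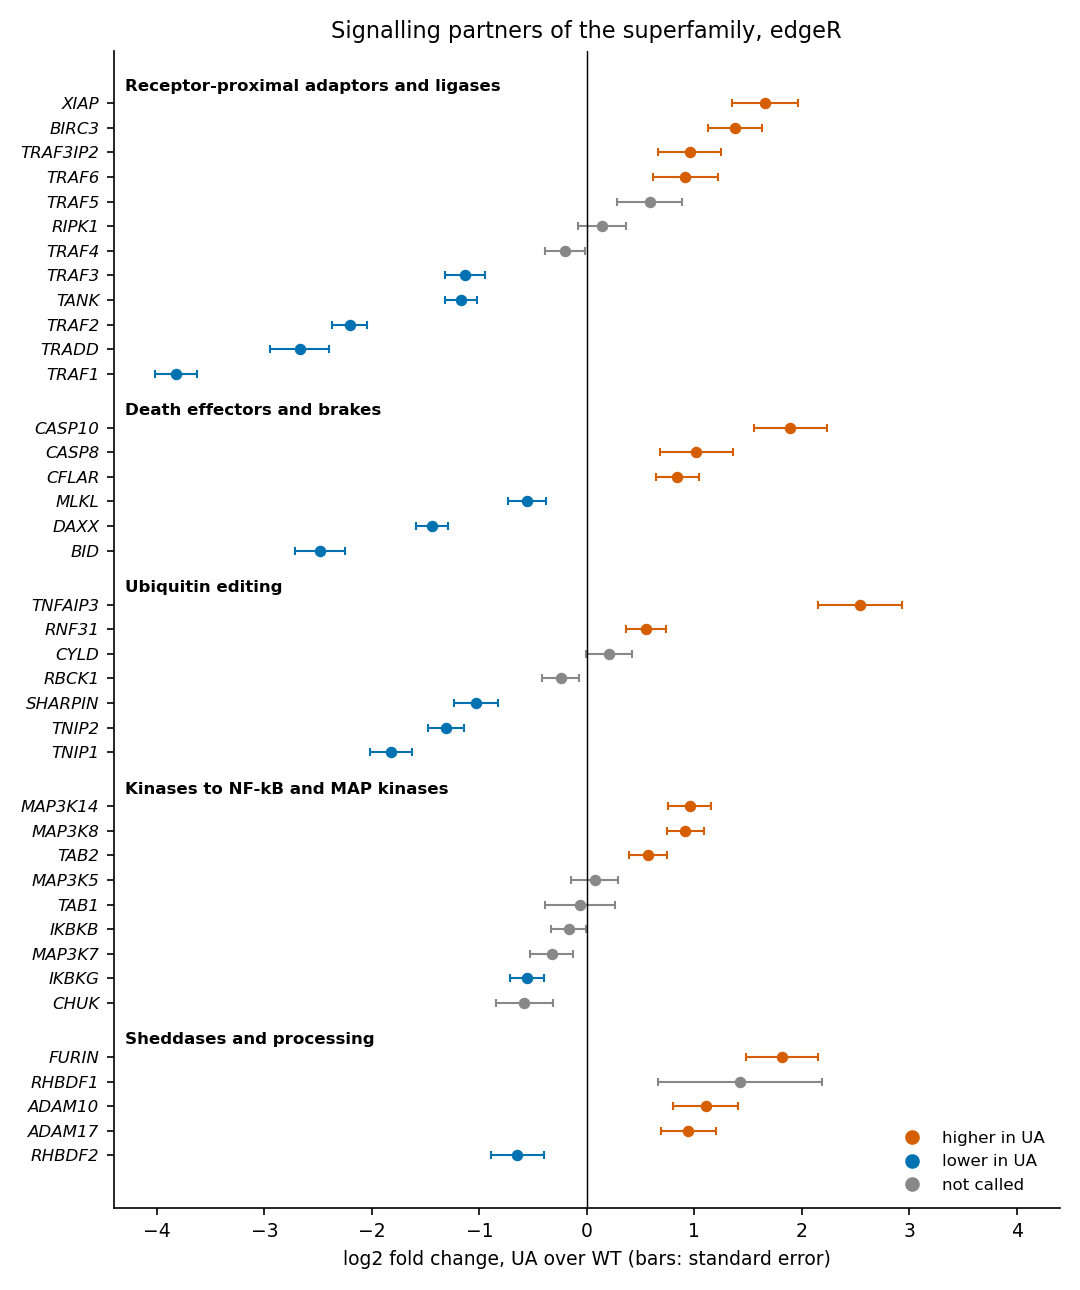
Log2 fold change of UA over WT (x axis) for 39 of the 41 tested signalling partners, in 5 groups by role, with bars of 1 standard error from the edgeR fit on 3 libraries per label. TRAF1 at -3.82 and TNFAIP3 at 2.54 are the ends of the range, and each of the 5 groups holds called members on both sides of 0.

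Superfamily genes that the symbol rule did not take were few. Of NGFR, EDA, EDAR, EDA2R and RELT, edgeR tested NGFR, EDA2R and RELT and called 0, with 1 at an unadjusted p under 0.05. Of all genes it called 66.0%. DESeq2, which gave an adjusted p for all 5, and limma-voom, which did for 3, also called 0. They had 1 and 0 at an unadjusted p under 0.05. RELT had 36.7, 31.3 and 36.5 CPM in WT and 39.6, 41.7 and 38.4 CPM in UA (log2 fold change 0.20, edgeR adjusted p = 0.344). EDA2R, the receptor of an ectodysplasin isoform, had 1.60, 0.956 and 1.26 CPM in WT and 2.17, 5.10 and 2.51 CPM in UA, with no overlap, an unadjusted p of 0.0358 and an edgeR adjusted p of 0.0537.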

How the data were processed

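RNA of single colonies was amplified with the SMART-Seq V4 kit and prepared with Nextera XT, per the labels' protocols, which marks neither strand nor molecule. The submitters' processing notes name Mmul 8.0.1 and bcl2fastq; aligner and counter: not given in the sources used here. Raw counts per gene were deposited by the authors. Their second deposited table holds a normalized mean count (a signal, per the file headers), log2 fold changes with standard errors, a statistic (a score) and p-values for a comparison whose libraries it does not name; it was used for symbols and coordinates.

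Of the 35 members, 4 were matched by row name, 18 by the deposited table and 13 by a table of gene names; 13408 IDs in the count table have no symbol. Counts were fitted whole with edgeR 4.0.16 (R 4.3.3, limma 3.58.1) by the quasi-likelihood test with robust=TRUE and the label as the only term. filterByExpr (minimum count 10, minimum total 15) kept 13768 genes. Benjamini-Hochberg adjustment ran over all of them, and an adjusted p under 0.05 was a call. Standard errors are the log2 fold change over the square root of F. A count of 0 allows 0.137 to 0.443 CPM by library (3 counts); intervals and limits cover counting error only. The fit was tested on simulated counts with known changes. It recovered 60% of changes of 1 on the log2 scale and 100% of changes of 2, with 5 false calls among 165. The simulated spread was the same for all genes and for each label, unlike in these libraries.

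Members and lists were chosen with earlier results of these data known. Members with a mean of at least 5 CPM in a group, and TNF, were to be named in full, as were the 10 partners of smallest p and TNFAIP3, TRAF1, BIRC3, CFLAR and ADAM17; 2 partners are counted but not reported singly here. Alternatives were 3 other scalings, 2 filters, DESeq2 1.42.0, limma-voom, a replicate block, summed UA libraries, thinning to the smallest total, an adjusted p under 0.1 and leaving out each library. Replicate numbers are not stated to pair colonies. A planned search for NF-kB motifs in promoters was not run, as no sequence was used here.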

Additional observations from a re-analysis of the deposited data

How the results depend on the processing

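Across 17 alternatives all 24 called members kept their direction, and 17 of them their call under each alternative that tested them. With the UA libraries summed, 5 members rose in place of 8, 5 ligands were called in place of 9 and 8 signalling partners rose in place of 17; all spread then comes from WT. No share of all genes called in that summed fit is given, so these counts have no background. The stricter filter, at least 5 CPM in 3 libraries, left 5 higher members in place of 8, as it tested 24 members. Among members not called, TNFRSF10B turned to 0.034 with library size alone and ranged from -0.30 to 0.12 when 1 library was left out (0.12 without WT replicate 2), and TNFRSF11A ranged from -0.0081 (without WT replicate 1) to 0.64. CD70 was called lower under 6 alternatives. Library size alone moved the median of all genes from 0.12 to 0.28, and under it 14 members were called lower and 8 higher. The replicate block gave 8 higher and 16 lower members, as without it. Same-numbered libraries deviated together by correlations of 0.013 to 0.022, each higher than with other numbers, too weak to pair them. Members at 1 CPM or more numbered 29 to 33 under other cut-offs and 31 to 33 when 1 library was left out. Low counts limit CD40LG, CD70, TNFRSF13B and TNFRSF19, whose values moved by over 1.5 times when a library was left out, and TNFRSF18, whose value did so when thinned.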

Other observations

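The authors' deposited table of differential expression lists 23 of the 35 members, 20 of which were tested here. For TNFSF8 the authors' deposited table gives a mean normalized count of 56.4, while its counts here were 252 to 4052 per library. The table names neither the libraries nor the direction of its comparison, so its fold changes are not compared with those above.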
